A study of Mus musculus with 8 samples.

Results

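Cardiac fibroblasts are the connective-tissue cells of the heart. They secrete and remodel its collagen-rich matrix, and once activated they become contractile myofibroblasts. The comparison described here sets fibroblasts from the hearts of 12-month-old wild-type mice against those of 3-month-old wild-type mice, the step from young to middle adult life. Both groups were primary cells kept in culture for 3 days, with 2 libraries per age. Thus 4 of the 8 libraries of the series were compared. The others came from neonatal pups (postnatal days 1 to 3) and 24-month-old mice. The series asks what hinders the direct reprogramming of adult and aged fibroblasts towards heart muscle cells. Senescence and the nuclear receptor Nr4a3 appear in its title. Its genes were taken whole: of 56691 genes in the table, 28899 had no count in the 4 libraries, and 16466 were expressed well enough to be tested. Levels are CPM, counts scaled to a common library size. Changes are log2 fold changes of 12 months over 3 months ± SE, with a call at an adjusted p of 0.05. No label ties the replicates to different animals or cultures, so p-values here reflect the spread of these samples alone, which may be technical.

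Library totals were 17283764 and 19940912 counts at 12 months and 22311330 and 21026804 counts at 3 months. Chi-square per degree of freedom was 2.74 between the 12-month libraries and 2.49 between the 3-month libraries, against 27.5 to 37.5 between libraries of different ages. The first principal component of the 4 libraries held 64.4% of the variance and separated the ages, while the second (19.5%) set the 12-month libraries apart from each other, at 24.0 and -23.0. Of genes on the Y chromosome, Uty, Kdm5d, Eif2s3y and Ddx3y were expressed in all 4 libraries and did not pass the test for a change. The highest of them was Ddx3y (130 and 133 CPM at 12 months, against 125 and 125 CPM at 3 months). The lowest was Uty (27.0 and 27.9 CPM at 12 months, against 29.0 and 26.3 CPM at 3 months). Xist, a non-coding RNA made from the inactive X of females, stayed below 1 CPM in all 4 libraries.

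By 12 months, cultured cardiac fibroblasts had lower levels of most interferon-response, cell-division, collagen and insulin-like growth factor genes. Levels of most antioxidant, p53-target and ribosomal protein genes were higher. In total 4680 genes passed (28.4% of those tested), 2130 of them higher (12.9%) and 2550 lower (15.5%) at 12 months. Most changes were small, with a median size of 0.39 on the log2 scale among called genes. Of these 3165 moved by less than 1.5-fold, and 705 moved at least 2-fold, 229 higher and 476 lower. With upper-quartile scaling the split was 2638 higher and 2154 lower, so the direction of the small changes depends on the scaling. The share of genes called grew with level, being 7.9% below 1 CPM, 18% from 1 to 5 CPM, 27.4% from 5 to 20 CPM, 35.8% from 20 to 100 CPM and 53.8% above 100 CPM.

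**Figure D1:**
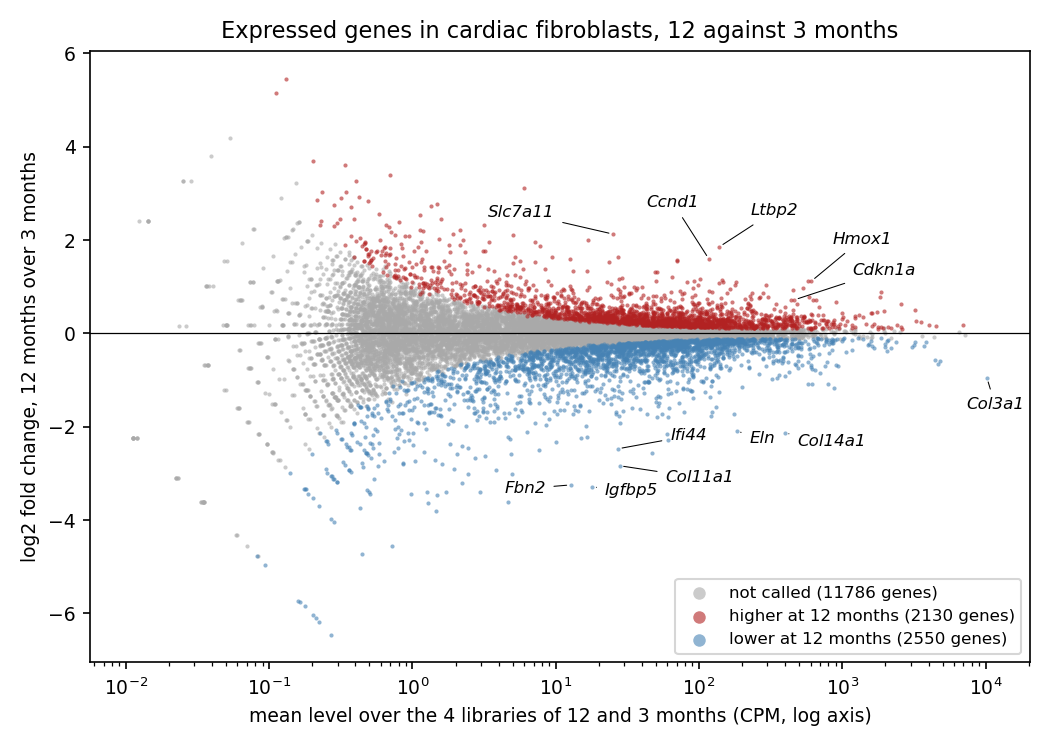
Log2 fold change of 12 months over 3 months (vertical axis) against the mean CPM of the 4 libraries (horizontal log axis), with 1 point for each of the 16466 genes tested. The 2130 higher genes are red, the 2550 lower genes blue and the rest grey, and points in straight rows at the left are genes with few counts, whose fitted folds are not bounds.

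The markers of the cell type were all present. Of 15 fibroblast markers, all passed the filter, with sums of 30479 and 29355 CPM at 12 months, against 41234 and 42084 CPM at 3 months. Of these, 10 fell and 3 rose, and the rises included the platelet-derived growth factor receptor Pdgfra (0.21 ± 0.05). The largest single part of this sum was Col3a1 (7251 and 6649 CPM at 12 months, against 13354 and 13575 CPM at 3 months). Markers of other heart cells were present at lower levels and moved as well. Of 18 endothelial markers 15 fell and none rose, with summed levels of 748 and 723 CPM at 12 months, against 806 and 877 CPM at 3 months. Most of that sum was Eng, which did not pass (515 and 514 CPM at 12 months, against 488 and 492 CPM at 3 months). The endothelial cadherin Cdh5 (-1.10 ± 0.13) and the adhesion molecule Pecam1 (-0.76 ± 0.12, and -0.50 without 12-month replicate 2) were among the markers that fell. The 3-month libraries differed in several of these markers. Replicate 2 was above replicate 1 for Cdh5 (60.4 against 40.9 CPM) and Kdr (26.6 against 15.7 CPM), but not for Ptprb (60.3 against 63.3 CPM). Sox17 counts as a fall although its ages overlapped. Of 21 macrophage markers 10 rose and 2 fell, with sums of 400.3 and 381 CPM at 12 months, against 249 and 286 CPM at 3 months, led by lysozyme, Lyz2 (164 and 157 CPM at 12 months, against 78.2 and 94.3 CPM at 3 months). Of 22 cardiomyocyte markers 15 rose, with sums of 685 and 679 CPM at 12 months, against 611 and 608 CPM at 3 months. Most of that sum was the widely expressed calcium pump Atp2a2 (619 and 634 CPM at 12 months, against 587 and 579 CPM at 3 months), whose call was lost without 3-month replicate 1 (adjusted p = 0.0976), 3-month replicate 2 (adjusted p = 0.183) or 12-month replicate 2 (adjusted p = 0.192). The heart-muscle myosin Myh6 was at 14.1 and 10.2 CPM at 12 months, against 2.16 and 4.46 CPM at 3 months, and the oxygen-binding protein myoglobin, Mb, was at 4.35 and 2.69 CPM at 12 months, against 0.585 and 0.91 CPM at 3 months. Troponin T, Tnnt2, rose by 0.37 ± 0.14, but not without 3-month replicate 1 (0.27, adjusted p = 0.282) or 12-month replicate 1 (0.17, adjusted p = 0.519), and by 0.57 without 12-month replicate 2 (adjusted p = 0.00905). The atrial myosin light chain Myl7 had no count in the 4 libraries. Pericyte and smooth muscle markers fell in 7 of 12 tested cases, with sums of 1383 and 1418 CPM at 12 months, against 1561 and 1699.6 CPM at 3 months. Smooth muscle actin, Acta2, made up most of this sum (1087 and 1138 CPM at 12 months, against 1174 and 1283 CPM at 3 months). Among epicardial and mesothelial markers, 5 of 12 were lower and 1 higher, with sums of 585 and 544 CPM at 12 months, against 772 and 773 CPM at 3 months. Nearly all of that sum was Aldh1a2, a retinoic acid enzyme (-0.53 ± 0.04), and Tbx18, a transcription factor that rose (0.31 ± 0.06). Lymphocyte and erythroid markers summed to less than 1 CPM in every library. In bulk RNA, fewer cells of a type and less RNA per cell cannot be told apart, and the part of these other cells in the results below was not tested.

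**Figure D2:**
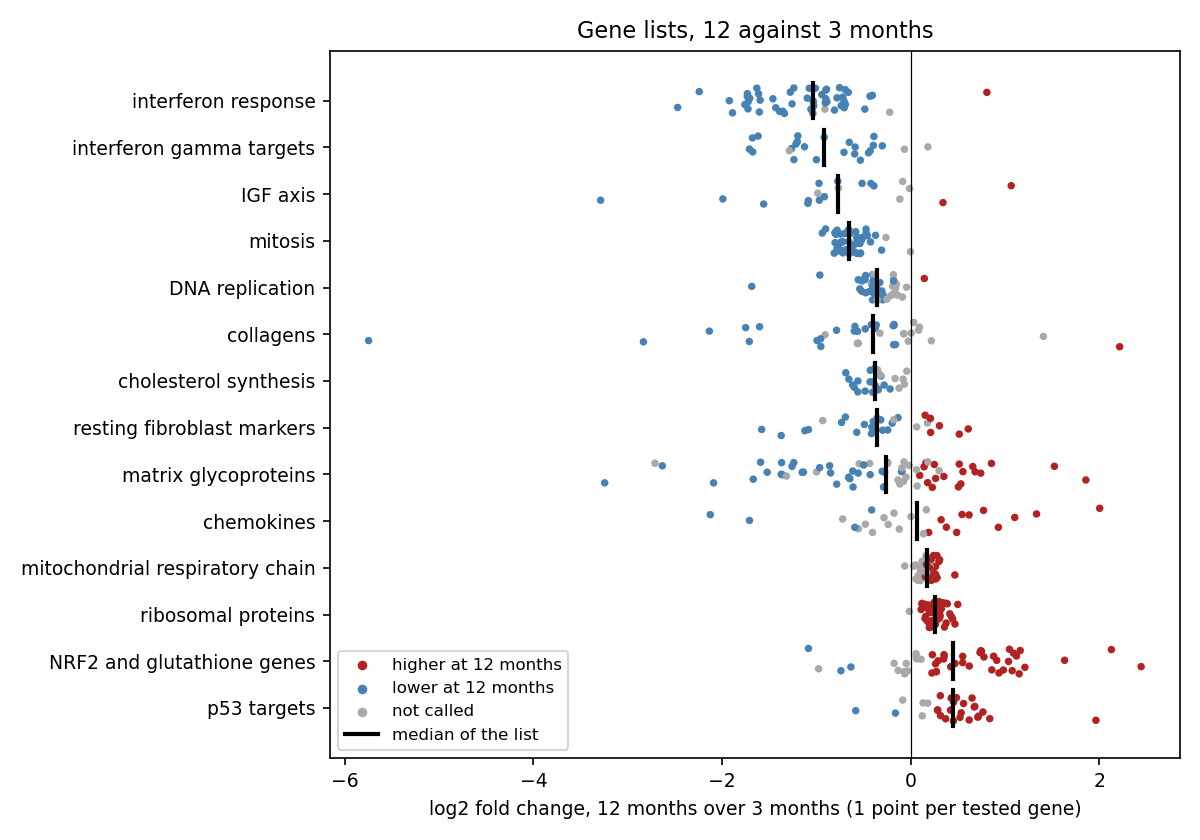
Log2 fold change of 12 months over 3 months (horizontal axis) for the tested members of 14 gene lists, 1 point per gene, coloured by call, with a black line at each list's median. Interferon, mitosis and collagen genes lie mostly left of 0, and NRF2, p53 and ribosomal protein genes mostly right of it, and Col9a1, with no count at 12 months, is drawn at its fitted value of -5.75.

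Interferons are signals of viral infection that act through the transcription factors such as STAT2 and IRF9, which bind a DNA element in the promoters of antiviral genes. Many fibroblasts keep these genes at a low standing level without infection. Of 53 tested interferon response genes 50 fell, 1 rose and 2 did not pass. Their median change was -1.04, against -0.0022 over all genes tested, and 31 of them fell at least 2-fold. The element was searched for as GAAA followed by any 2 bases and a second GAAA, on either strand, in windows of 300 bases, 250 before and 50 after each gene's start (RefSeq, GRCm38.p6). It was present for 20 of the 39 interferon response genes that have a window (51.3%), against 3.99% of the 27025 genes with one and 3.78% of the 11418 of these that were tested. Such a match is a description of the letters and not a measured binding site. The 250 bases before the start are shown for the 4 genes with the largest falls among those with a match in that stretch and a single start. Ifit3b and Oas1g, which have near-identical copies, were left out. Capitals mark each match.

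Ifit1 (chr19:34640639-34640888, + strand): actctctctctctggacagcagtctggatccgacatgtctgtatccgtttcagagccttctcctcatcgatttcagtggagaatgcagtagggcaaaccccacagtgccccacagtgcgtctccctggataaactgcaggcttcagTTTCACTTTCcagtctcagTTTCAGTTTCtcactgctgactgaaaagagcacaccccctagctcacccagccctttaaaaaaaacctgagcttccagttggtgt

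Ifit3 (chr19:34583279-34583528, + strand): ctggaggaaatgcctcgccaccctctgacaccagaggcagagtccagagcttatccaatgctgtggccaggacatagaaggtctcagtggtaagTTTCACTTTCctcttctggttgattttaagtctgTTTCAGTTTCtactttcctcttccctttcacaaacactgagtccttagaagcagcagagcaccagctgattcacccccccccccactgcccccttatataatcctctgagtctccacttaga

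Rsad2 (chr12:26456453-26456702, - strand): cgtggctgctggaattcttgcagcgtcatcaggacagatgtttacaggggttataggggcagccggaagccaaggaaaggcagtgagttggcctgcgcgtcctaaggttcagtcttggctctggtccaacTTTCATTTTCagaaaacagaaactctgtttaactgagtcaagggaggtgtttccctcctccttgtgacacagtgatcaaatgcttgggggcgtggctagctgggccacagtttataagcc

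Oas3 (chr5:120777660-120777909, - strand): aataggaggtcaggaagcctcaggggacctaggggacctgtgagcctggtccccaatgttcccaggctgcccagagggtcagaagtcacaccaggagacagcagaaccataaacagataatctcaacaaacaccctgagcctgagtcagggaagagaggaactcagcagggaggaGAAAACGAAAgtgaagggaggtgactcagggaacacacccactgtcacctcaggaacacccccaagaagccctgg

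The matches lie 104 to 76 bases before the start in Ifit1, where there is a pair, and as a pair between 156 and 113 bases before it in Ifit3. Rsad2 has 1 match, 120 to 111 bases before the start, and Oas3 has 1, 75 to 66 bases before it.

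Regulators of the response were lower at 12 months. Irf7, the transcription factor that amplifies interferon production, was at 28.6 and 32.2 CPM at 12 months, against 94.8 and 89.4 CPM at 3 months (-1.60 ± 0.07, adjusted p = 9.53e-17). Stat2 was at 90.5 and 96.0 CPM at 12 months, against 176 and 183 CPM at 3 months (-0.94 ± 0.05, adjusted p = 6.42e-15), and Irf9 changed by -0.49 ± 0.07. Both 12-month libraries were below both 3-month libraries for these 3 genes, a lack of overlap that 62.4% of all tested genes showed in one direction or the other. Sensors of viral RNA also fell, namely Ifih1, which encodes MDA5 (-0.90 ± 0.06), and Ddx58, which encodes RIG-I (-0.69 ± 0.05), as did the nucleic-acid sensor Zbp1 (-1.24 ± 0.06).

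The effector genes, which block viruses directly, were lower as well. Isg15, a ubiquitin-like protein attached to other proteins, was at 24.9 and 28.5 CPM at 12 months, against 74.6 and 72.8 CPM at 3 months (-1.46 ± 0.07, adjusted p = 6.11e-16). Ifit1, which binds viral RNA, was at 46.6 and 63.6 CPM at 12 months, against 157 and 218 CPM at 3 months (-1.76 ± 0.10, adjusted p = 3.64e-14). Its neighbour Ifit3 was at 72.1 and 89.3 CPM at 12 months, against 244 and 294 CPM at 3 months (-1.73 ± 0.08, adjusted p = 5.85e-16). In both Ifit genes the 3-month libraries spread more than those of Irf7, yet no library of one age reached the other. Rsad2, which encodes the antiviral enzyme viperin, was at 8.02 and 15.9 CPM at 12 months, against 35.5 and 45.3 CPM at 3 months (-1.73 ± 0.15, adjusted p = 2.58e-10). The 2'-5' oligoadenylate synthase gene Oas3 was low, at 1.38 and 1.29 CPM at 12 months, against 3.82 and 4.31 CPM at 3 months (-1.60 ± 0.25), and its relative Oasl2 was at 75.1 and 87.1 CPM at 12 months, against 187 and 201 CPM at 3 months (-1.26 ± 0.06). Steepest in the list were Ifi44 (-2.47 ± 0.13) and the mitochondrial nucleotide kinase Cmpk2 (-2.24 ± 0.15). The Ifit3 copy Ifit3b fell by 1.92 on the log2 scale, and reads from the 2 near-identical genes may have been shared in counting. Bst2, which tethers viruses to the cell surface, was at 93.9 and 91.1 CPM at 12 months, against 177 and 166 CPM at 3 months (-0.89 ± 0.06), and the most abundant gene named, the large ubiquitin ligase Rnf213, was at 365 and 421 CPM at 12 months, against 801 and 856 CPM at 3 months (-1.07 ± 0.05). The protease Usp18, which removes ISG15 and dampens interferon signalling, fell too (-1.61 ± 0.09). The exception was Ifi27, a mitochondrial protein gene, at 60.6 and 66.6 CPM at 12 months, against 34.0 and 38.8 CPM at 3 months (0.81 ± 0.07, adjusted p = 3.98e-10).

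Genes induced mainly by interferon gamma, the type made by lymphocytes, moved the same way, with 22 of 25 lower and none higher (median -0.92). The immunity-related GTPases Iigp1 (31.2 and 43.3 CPM at 12 months, against 107 and 133 CPM at 3 months) and Irgm1 (-1.26 ± 0.05) and the guanylate-binding protein Gbp3 (-1.20 ± 0.07) fell. The chemokine Cxcl10, which attracts T cells, was at 1.83 and 5.72 CPM at 12 months, against 8.72 and 16.8 CPM at 3 months (-1.71 ± 0.27, adjusted p = 1.38e-05), and at -2.79 without 12-month replicate 2, the library with the higher value. Within MHC class I, the antigen-presenting molecules, 9 of 17 fell and none rose (median -0.38). The classical heavy chain H2-K1 (258 and 237 CPM at 12 months, against 318 and 326 CPM at 3 months) and its partner B2m (782 and 705 CPM at 12 months, against 954 and 943 CPM at 3 months) changed by -0.38 ± 0.05 and -0.35 ± 0.05. H2-D1 (-0.30 ± 0.05), H2-Q4 (-0.82 ± 0.07), the peptide-loading factor Tapbp (-0.59 ± 0.06) and the class I regulator Nlrc5 (-0.45 ± 0.09) also fell, and class I genes are similar enough for reads to be shared between them. None of the 6 MHC class II genes tested passed with edgeR, limma-voom or DESeq2. At an unadjusted p under 0.05 there were 2, 2 and 0 by these tools, and 1 gene passed with edgeR without 12-month replicate 2.

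Cell division genes fell almost without exception. Dividing cells make mitotic proteins under the control of FOXM1 and related factors, many of which act at a promoter element called the cell-cycle genes homology region. Of 50 mitosis genes 48 fell and none rose (median -0.65), yet none fell as much as 2-fold. Mki67, the standard proliferation marker, was at 162 and 176 CPM at 12 months, against 284 and 273 CPM at 3 months (-0.72 ± 0.05, adjusted p = 1.21e-11), and the DNA-untangling enzyme Top2a was at 158 and 177 CPM at 12 months, against 288 and 275 CPM at 3 months (-0.75 ± 0.06, adjusted p = 1.64e-11). The 2 libraries of each age differed little, and the ages were far apart. Mitotic cyclins Ccna2 (-0.80 ± 0.08) and Ccnb1 (-0.64 ± 0.08) fell with their kinase Cdk1 (-0.60 ± 0.06), and so did the mitotic kinase Plk1 (-0.54 ± 0.07) and the factor Foxm1 itself (-0.59 ± 0.08). Among spindle and kinetochore genes, Bub1b (-0.78 ± 0.08), Cenpf (-0.80 ± 0.07), Knl1 (-0.80 ± 0.09) and the motor Kif20b (-0.79 ± 0.08) fell. The motors Kif15 (-0.81 ± 0.09) and Kif11 (-0.77 ± 0.08) did likewise.

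The core of the element, searched for as TTTGAA on either strand, was in the window of 30 of the 43 mitosis genes that have one (69.8%), against 20.2% of all genes with a window and 14.6% of the tested ones. It was in 7 of 39 DNA replication genes (17.9%), between those shares. Below are the 250 bases before the start of the 3 genes of the list with the largest falls that have a match in that stretch and a single start, with the matches in capitals. Each of the 3 has a match close to the start, from 23 to 14 bases before it.

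Kif15 (chr9:122950831-122951080, + strand): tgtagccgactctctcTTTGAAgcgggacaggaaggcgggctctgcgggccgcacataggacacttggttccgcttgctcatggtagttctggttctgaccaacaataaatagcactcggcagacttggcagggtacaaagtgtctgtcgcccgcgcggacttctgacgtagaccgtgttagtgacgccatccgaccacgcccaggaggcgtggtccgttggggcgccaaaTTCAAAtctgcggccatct

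Kif11 (chr19:37376132-37376381, + strand): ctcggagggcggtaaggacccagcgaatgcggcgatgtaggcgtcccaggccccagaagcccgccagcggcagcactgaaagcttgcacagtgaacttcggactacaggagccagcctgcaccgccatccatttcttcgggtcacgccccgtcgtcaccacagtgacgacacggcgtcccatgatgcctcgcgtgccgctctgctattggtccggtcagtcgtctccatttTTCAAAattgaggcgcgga

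Top2a (chr11:99024190-99024439, - strand): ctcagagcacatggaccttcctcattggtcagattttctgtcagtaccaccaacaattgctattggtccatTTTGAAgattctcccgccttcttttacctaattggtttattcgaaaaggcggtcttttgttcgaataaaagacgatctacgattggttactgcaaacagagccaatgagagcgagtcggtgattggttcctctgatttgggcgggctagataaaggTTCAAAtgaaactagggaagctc

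DNA replication genes fell less, with 30 of 48 lower and 1 higher (median -0.35). The helicase subunit Mcm6 was at 81.8 and 90.0 CPM at 12 months, against 119 and 122 CPM at 3 months (-0.49 ± 0.08, adjusted p = 9e-06), and the sliding clamp Pcna was at 87.1 and 98.0 CPM at 12 months, against 120.2 and 117 CPM at 3 months (-0.35 ± 0.05, adjusted p = 7.84e-06). Lig1, which joins DNA fragments, changed by -0.52 ± 0.06, the cell-cycle repressor E2f8 by -0.96 ± 0.14 and the methylation-copying factor Uhrf1 by -0.48 ± 0.07. In contrast, the G1 cyclin Ccnd1 was among the 20 largest rises of genes averaging 5 CPM or more, at 160.1 and 192 CPM at 12 months, against 61.9 and 54.7 CPM at 3 months (1.59 ± 0.07, adjusted p = 2.55e-17), with 72.7 and 68.5 CPM at 24 months.

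Targets of p53, the transcription factor that halts division after DNA damage and other stress, rose in 22 of 28 cases and fell in 2 (median 0.45). Cdkn1a, the gene of the division-blocking protein p21, was at 560.5 and 588 CPM at 12 months, against 351 and 347 CPM at 3 months (0.72 ± 0.04, adjusted p = 3.24e-14). The p53-binding ubiquitin ligase Mdm2 was at 257 and 283 CPM at 12 months, against 176 and 168 CPM at 3 months (0.65 ± 0.05, adjusted p = 4.15e-12), and cyclin G1, Ccng1, was at 751 and 791 CPM at 12 months, against 479 and 461 CPM at 3 months (0.71 ± 0.04, adjusted p = 3.98e-14). In these 3 genes the libraries of an age lay close together. The RNA-binding p53 target Zmat3 (0.62 ± 0.05), the death receptor Eda2r (0.67 ± 0.06), the AKT inhibitor Phlda3 (0.56 ± 0.05), the pore-forming protein Bax (0.46 ± 0.05) and the co-stimulatory molecule Cd80 (0.84 ± 0.06) rose as well. Perp, a p53-induced membrane protein, changed most, at 10.8 and 11.8 CPM at 12 months, against 2.38 and 3.45 CPM at 3 months (1.97 ± 0.18, adjusted p = 3.59e-10). The 2 that fell were the repair factor Ddb2 (-0.58 ± 0.22) and the antiproliferative gene Btg2 (-0.16 ± 0.05). Ddb2 lost its call when any 1 of the 4 libraries was left out (adjusted p = 0.0562 to 0.244), and Btg2 lost its call when 3-month replicate 2 (adjusted p = 0.0764) or 12-month replicate 2 (adjusted p = 0.0658) was left out. Trp53 itself rose slightly (0.19 ± 0.05, adjusted p = 0.00618), a call lost when 3-month replicate 2 was left out (0.16, adjusted p = 0.0976).

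Of 15 cell-cycle inhibitors and senescence genes, 3 rose and 7 fell (median -0.14). The rises were Cdkn1a and Trp53, both given above, and the stress-related cytokine gene Gdf15 (0.32 ± 0.12, adjusted p = 0.0487). Senescence is a stable exit from the cell cycle, often marked by the inhibitor p16. Cdkn2a, which encodes p16 and ARF, was barely detected, at 1.66 and 2.14 CPM at 12 months, against 1.26 and 2.35 CPM at 3 months, and did not pass (0.09 ± 0.30, adjusted p = 0.861). Its change was -0.29 without 3-month replicate 1 and -0.11 without 12-month replicate 2. Cdkn2b was at 8.42 and 8.51 CPM at 12 months, against 6.92 and 6.18 CPM at 3 months and did not pass (0.37 ± 0.14, adjusted p = 0.0565). The other inhibitors Cdkn2c (-0.42 ± 0.07), Cdkn2d (-0.61 ± 0.12) and Cdkn1b (-0.59 ± 0.06) fell. So did the nuclear lamin Lmnb1 (-0.59 ± 0.07) and the chromatin protein Hmgb2 (-0.68 ± 0.07), both of which are known to be lost in senescent cells and are also linked to proliferation. Glb1, the gene of the lysosomal galactosidase used as a senescence stain, did not pass (-0.14 ± 0.05, adjusted p = 0.0572).

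Genes of NRF2 and glutathione rose. NRF2 is the transcription factor, encoded by Nfe2l2, that switches on antioxidant and detoxifying enzymes when cells meet oxidants or electrophiles. Of 48 tested genes 34 rose, 3 fell and 11 did not pass (median 0.45), and 11 rose at least 2-fold. Slc7a11, the cystine importer that feeds glutathione synthesis, had the largest rise among called genes that averaged 5 CPM or more, did not overlap between ages and were no predicted or clone-based gene. It was at 34.4 and 47.2 CPM at 12 months, against 8.36 and 10.4 CPM at 3 months (2.13 ± 0.13, adjusted p = 5.81e-14). The quinone reductase Nqo1 was at 37.3 and 45.0 CPM at 12 months, against 14.3 and 12.3 CPM at 3 months (1.63 ± 0.10, adjusted p = 8.3e-14). The rule that picked both genes admits only genes without overlap between the ages, a lack of overlap that 62.4% of all tested genes showed. Hmox1, the heme-degrading enzyme, was at 786 and 881 CPM at 12 months, against 386 and 380.0 CPM at 3 months (1.12 ± 0.05, adjusted p = 2.55e-17). Enzymes that build glutathione rose too, Gclm by 1.15 ± 0.05 and Gclc by 0.74 ± 0.05. The repair enzyme Srxn1 (1.08 ± 0.05) and thioredoxin reductase Txnrd1 (679.9 and 741 CPM at 12 months, against 367 and 352 CPM at 3 months, 0.98 ± 0.04) followed. Transferases that attach glutathione to toxic molecules rose, Gsta3 by 1.16 ± 0.05 and Gstp1 by 1.04 ± 0.08, and reads of Gstp1 may be shared with its copies. Among enzymes of the pentose phosphate pathway and NADPH supply, Taldo1 (1.09 ± 0.05), Pgd (0.78 ± 0.04), G6pdx (0.55 ± 0.05) and Me1 (0.47 ± 0.05) rose. The iron-storing ferritin chains Fth1 (2423 and 2427 CPM at 12 months, against 1326 and 1309.7 CPM at 3 months) and Ftl1 (3057 and 3198 CPM at 12 months, against 2005 and 2060.0 CPM at 3 months) were the most abundant and rose by 0.88 ± 0.04 and 0.62 ± 0.04. The glutathione conjugate exporter Abcc1 rose by 0.86 ± 0.05.

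Enzymes that destroy reactive oxygen went both ways. Catalase, Cat, a peroxisomal enzyme, rose (1.05 ± 0.06), as did the mitochondrial superoxide dismutase Sod2 (0.75 ± 0.05). The 3 genes of the list that fell were the secreted glutathione peroxidase Gpx3 (547 and 479 CPM at 12 months, against 1071 and 1102 CPM at 3 months, -1.08 ± 0.05, adjusted p = 2.87e-17), the secreted superoxide dismutase Sod3 (132 and 113 CPM at 12 months, against 197 and 212 CPM at 3 months, -0.74 ± 0.06, adjusted p = 6.88e-12) and the endoplasmic reticulum peroxidase Gpx7 (42.7 and 41.5 CPM at 12 months, against 63.7 and 66.8 CPM at 3 months, -0.63 ± 0.06, adjusted p = 2.42e-09). Nfe2l2 itself rose only slightly (245 and 261 CPM at 12 months, against 216 and 218 CPM at 3 months, 0.23 ± 0.04, adjusted p = 0.000227). The core antioxidant element TGACNNNGC was in the window of 13 of 40 listed genes (32.5%), against 14.0% of all genes with one and 16.8% of the tested ones. At 24 months Slc7a11 was at 8.21 and 10.2 CPM, Nqo1 at 14.8 and 13.6 CPM, Srxn1 at 91.3 and 95.8 CPM and Hmox1 at 590.3 and 619 CPM, a level near that of 3 months for the first 3 and between the other ages for Hmox1.

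**Figure D3:**
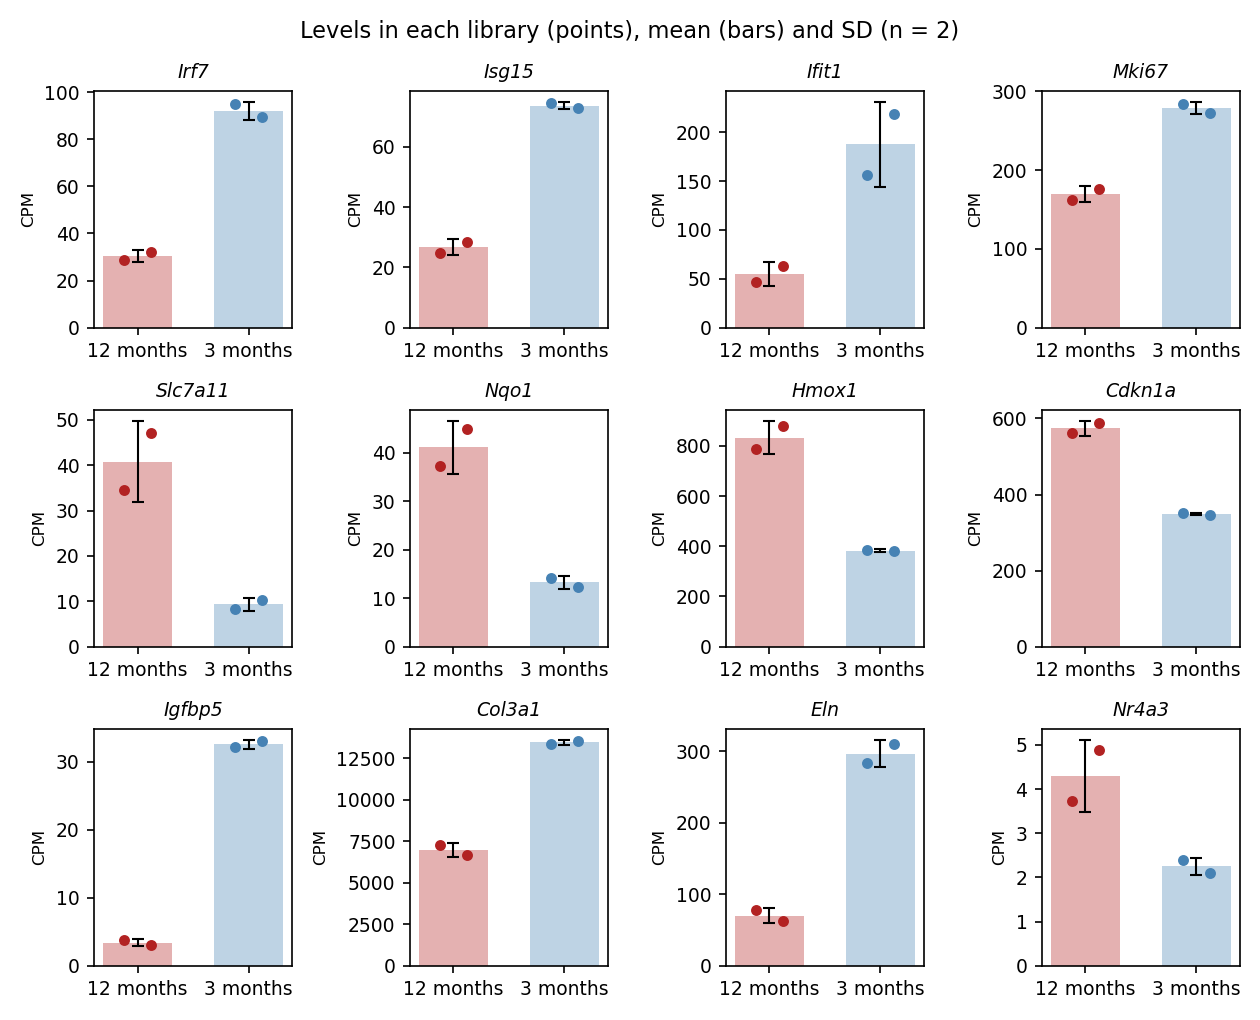
CPM of 12 genes in each library (points), with the mean (bars) and SD (n = 2), 12 months at the left and 3 months at the right of each panel, on axes that start at 0. The libraries of the 2 ages do not overlap in any panel, which also holds for 4671 of the 4680 called genes and 62.4% of all tested genes. The lower age is 12 months for Irf7, Isg15, Ifit1, Mki67, Igfbp5, Col3a1 and Eln.

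Ribosomal protein genes rose by small amounts, and so did part of the respiratory chain genes. Of 49 ribosomal protein genes 48 rose and none fell (median 0.26), with Rps2 at 1969 and 2071 CPM at 12 months, against 1475 and 1442 CPM at 3 months (0.47 ± 0.04, adjusted p = 5.71e-11) and Rplp0 at 1808 and 1869.7 CPM at 12 months, against 1341 and 1359 CPM at 3 months (0.45 ± 0.04, adjusted p = 8.74e-11). Many ribosomal protein genes have processed copies in the genome that can share their reads. No gene of this list passed a test against 1.5-fold. In the mitochondrial respiratory chain 25 of 46 nuclear-encoded genes rose and none fell (median 0.17), but the number was 15 without 3-month replicate 2 and 14 without 12-month replicate 2. The complex I subunit Ndufa10 was at 84.7 and 81.5 CPM at 12 months, against 60.5 and 59.5 CPM at 3 months (0.47 ± 0.05, adjusted p = 6.97e-08) and the ATP synthase subunit Atp5b at 827 and 871 CPM at 12 months, against 716 and 698 CPM at 3 months (0.26 ± 0.04, adjusted p = 5.17e-06). These small rises also move with the scaling, the medians being 0.30 and 0.21 with upper-quartile scaling.

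Cholesterol synthesis genes fell in 18 of 25 cases and rose in none (median -0.37). They are controlled by SREBF2, a membrane-bound transcription factor released when sterols are low. The first committed enzyme of the branch, Hmgcs1, was at 109 and 106 CPM at 12 months, against 167 and 179 CPM at 3 months (-0.69 ± 0.06, adjusted p = 5.98e-11). The sterol sensor Insig1 (-0.66 ± 0.05) and Srebf2 (-0.22 ± 0.05) fell with it. None of the 25 passed a test against 1.5-fold. The sterol regulatory element, searched for as TCACNCCAC on either strand, was in the window of 1 of 17 listed genes (5.88%) against 1.44% of all genes with one and 1.37% of the tested ones. That gene is Hmgcs1, whose 250 bases before the start are shown with the match, 137 to 129 bases before it, in capitals.

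Hmgcs1 (chr13:119690101-119690350, + strand): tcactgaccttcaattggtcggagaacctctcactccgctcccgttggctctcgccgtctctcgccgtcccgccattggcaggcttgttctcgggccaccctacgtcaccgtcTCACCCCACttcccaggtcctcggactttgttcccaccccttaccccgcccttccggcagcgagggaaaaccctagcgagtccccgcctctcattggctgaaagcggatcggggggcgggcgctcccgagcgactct

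The matrix, the main product of fibroblasts, changed in composition. Of 37 collagen genes tested 24 fell and 1 rose (median -0.40). Summed over the list, collagens took 29549 and 28553 CPM at 12 months, against 41911 and 43281 CPM at 3 months. Chains of types I, III and V fell. Col3a1, the most abundant, was at 7251 and 6649 CPM at 12 months, against 13354 and 13575 CPM at 3 months (-0.95 ± 0.04, adjusted p = 5.12e-18). Col1a1, of type I collagen, was at 3727 and 3458 CPM at 12 months, against 5119 and 5463 CPM at 3 months (-0.56 ± 0.04, adjusted p = 1.62e-12), and its partner Col1a2 was at 3852 and 3825 CPM at 12 months, against 5780.0 and 5838 CPM at 3 months (-0.60 ± 0.03, adjusted p = 8.32e-15). In all 3 the loss was larger than the spread between libraries. Per length, in the FPKM that the authors deposited, Col3a1 averaged 714 at 12 months and 1364 at 3 months, Col1a1 552 and 802, and Col1a2 312 and 465. Col5a1, which starts fibrils (-0.40 ± 0.04), and Col6a3 of the beaded filaments around cells (-0.59 ± 0.04) fell as well. Apart from Col9a1, described below, the steepest falls were in Col11a1, a minor fibril chain, at 5.50 and 8.06 CPM at 12 months, against 49.6 and 48.4 CPM at 3 months (-2.83 ± 0.09, adjusted p = 2.04e-19), and Col14a1, a fibril-associated collagen, at 160.2 and 134 CPM at 12 months, against 610.0 and 679.6 CPM at 3 months (-2.13 ± 0.07, adjusted p = 1.71e-19). Col2a1, the cartilage collagen, was the 1 that rose, at 1.66 and 2.04 CPM at 12 months, against 0.27 and 0.527 CPM at 3 months (2.22 ± 0.42, adjusted p = 0.00015). Col9a1 had no count at 12 months and 14 counts at 3 months, 3 in replicate 1 and 11 in replicate 2. Taking 3 counts over the 2 libraries as the floor, the summed counts were 4.07-fold lower at 12 months. That figure leaves out the counting error of the 14 counts and rests mainly on 3-month replicate 2.

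Elastic fibre genes were rearranged. These fibres have a core of elastin laid on fibrillin microfibrils, to which latent TGF-beta binding proteins attach. Elastin, Eln, was at 77.2 and 62.5 CPM at 12 months, against 283 and 310.1 CPM at 3 months (-2.09 ± 0.06, adjusted p = 4.37e-20), and Fbn2, the fibrillin of developing tissue, was at 2.41 and 2.44 CPM at 12 months, against 21.9 and 24.2 CPM at 3 months (-3.25 ± 0.13, adjusted p = 1.76e-17). The adult fibrillin Fbn1 was at 2772 and 2699.8 CPM at 12 months, against 3291 and 3387 CPM at 3 months (-0.29 ± 0.04). Microfibril partners went both ways: Emilin1 (-0.78 ± 0.04), Mgp, an inhibitor of calcification (-1.15 ± 0.05), and Fbln1 (-1.37 ± 0.07) fell. Ltbp2 was at 207 and 228 CPM at 12 months, against 60.8 and 59.2 CPM at 3 months (1.86 ± 0.05, adjusted p = 7.13e-21), one of the largest rises of an abundant gene, and Ltbp1 (0.66 ± 0.06), Ltbp4 (0.68 ± 0.05), Fbln2 (3755 and 3774 CPM at 12 months, against 2634 and 2665 CPM at 3 months, 0.51 ± 0.03) and Efemp1, also called fibulin-3 (0.86 ± 0.05), rose as well. Over 66 matrix glycoproteins, 18 rose and 30 fell (median -0.26). Fibronectin, Fn1, was at 3706 and 3599 CPM at 12 months, against 5656 and 5766 CPM at 3 months (-0.64 ± 0.03, adjusted p = 1.78e-15), and the matricellular gene Ccn5 changed by -0.85 ± 0.05. Periostin, Postn, a marker of activated fibroblasts, was at 232 and 251 CPM at 12 months, against 238 and 225 CPM at 3 months and did not pass (0.06 ± 0.05, adjusted p = 0.383), nor did tenascin C, Tnc (-0.09 ± 0.04, adjusted p = 0.087), or Sparc (-0.07 ± 0.03, adjusted p = 0.122).

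Proteoglycans fell in 18 of 31 cases and rose in 5 (median -0.33). The collagen-binding Lum (228 and 223 CPM at 12 months, against 366 and 363 CPM at 3 months, -0.69 ± 0.04), Ogn (-0.69 ± 0.05) and Dcn (-0.30 ± 0.04) fell, while the large proteoglycan Vcan (1083 and 1142 CPM at 12 months, against 712 and 677 CPM at 3 months, 0.68 ± 0.04, adjusted p = 6.81e-14) and Bgn (0.15 ± 0.03) rose. Of 28 genes that process and crosslink collagen 21 fell and 1 rose (median -0.28). These include the lysine hydroxylase Plod2 (459 and 458 CPM at 12 months, against 736 and 770.0 CPM at 3 months, -0.72 ± 0.04, adjusted p = 1.28e-14), the proline hydroxylase P4ha1 (-0.45 ± 0.04) and the collagen chaperone Serpinh1 (-0.32 ± 0.04). The crosslinking oxidase Lox was at 2032 and 2000.0 CPM at 12 months, against 1815 and 1919.6 CPM at 3 months and did not pass (0.11 ± 0.04, adjusted p = 0.0545), but passed without 3-month replicate 2 (0.15, adjusted p = 0.0278). Matrix proteases fell in 17 of 39 cases and rose in 5 (median -0.15). Mmp10, a stromelysin, was at 8.25 and 8.21 CPM at 12 months, against 1.89 and 1.92 CPM at 3 months (2.11 ± 0.19, adjusted p = 4.06e-10), and Mmp12, an elastase, rose (0.75 ± 0.07), whereas the abundant stromelysin Mmp3 (2999 and 2803 CPM at 12 months, against 3503 and 3370.4 CPM at 3 months, -0.24 ± 0.04) and the proteoglycan-cutting Adamts4 (-1.20 ± 0.09) fell. Of 27 protease inhibitors 8 rose and 13 fell, with Timp1 at 0.57 ± 0.04, Timp3 at -0.91 ± 0.06 and Serpina3n at -0.90 ± 0.06.

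Genes of the contractile myofibroblast fell more often than they rose. Of 27, 4 rose and 15 fell (median -0.14). Among all tested genes 12.9% were higher and 15.5% lower, and 53.8% of those above 100 CPM were called. Smooth muscle actin, Acta2, was at 1087 and 1138 CPM at 12 months, against 1174 and 1283 CPM at 3 months (-0.14 ± 0.04, adjusted p = 0.00814). Leaving out 3-month replicate 2 (adjusted p = 0.278) or 12-month replicate 1 (adjusted p = 0.0987) ended that call. Tagln was at 136 and 142 CPM at 12 months, against 158 and 155 CPM at 3 months (-0.18 ± 0.05, adjusted p = 0.00646), a call lost when 3-month replicate 1 (adjusted p = 0.0575) or 12-month replicate 1 (adjusted p = 0.0811) was left out. The collagen-binding integrin Itga11 (12.0 and 13.1 CPM at 12 months, against 31.7 and 34.9 CPM at 3 months, -1.40 ± 0.11, adjusted p = 1.35e-11), the myosin light chain Myl9 (-0.62 ± 0.05) and the adhesion protein Vcl (-0.53 ± 0.04) fell, while tropomyosin Tpm2 rose (0.30 ± 0.05). Markers of resting fibroblasts fell in 19 of 29 cases and rose in 6 (median -0.36). Dermatopontin, Dpt, was at 72.4 and 58.8 CPM at 12 months, against 189.7 and 202 CPM at 3 months (-1.58 ± 0.06, adjusted p = 1.76e-17), and the fibroblast transcription factor Tcf21 (-0.40 ± 0.05), the progenitor antigen Ly6a (-0.38 ± 0.06) and Gsn (-0.40 ± 0.05) fell. Cd34, another progenitor marker, rose (162 and 162 CPM at 12 months, against 101 and 111 CPM at 3 months, 0.61 ± 0.05, adjusted p = 1.18e-10). Among the 20 largest falls of all genes were also the muscle cytoskeletal adaptors Pdlim3 (-2.16 ± 0.08) and Sorbs2 (-1.80 ± 0.09) and the wound-response gene Nrep (-1.84 ± 0.12). The angiotensin II receptor Agtr1a (2.69 and 2.04 CPM at 12 months, against 9.08 and 11.2 CPM at 3 months, -2.11 ± 0.22, adjusted p = 6.29e-09) and the nitric oxide receptor subunit Gucy1a1 (14.8 and 12.5 CPM at 12 months, against 77.9 and 83.9 CPM at 3 months, -2.57 ± 0.09, adjusted p = 9.23e-19) were in the same group, as were the receptor kinases Kit (-2.34 ± 0.18), Ntrk3 (-2.51 ± 0.20) and Epha7 (-1.91 ± 0.17), the secreted fibrinogen-like protein Fgl2 (-2.28 ± 0.08), the surface glycoprotein Mcam (-2.22 ± 0.12) and Ripor3 (-1.95 ± 0.15).

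Secreted inflammatory genes did not move as 1 program. Of 26 chemokines 11 rose and 4 fell (median 0.07). Those that attract neutrophils rose: Cxcl5, the most abundant, was at 2282 and 2323 CPM at 12 months, against 1497 and 1197 CPM at 3 months (0.77 ± 0.07, adjusted p = 2.21e-10), Cxcl1 was at 243 and 255 CPM at 12 months, against 127 and 104 CPM at 3 months (1.10 ± 0.06, adjusted p = 1.48e-14), and Cxcl3 rose by 1.33 ± 0.16. The eosinophil chemokine Ccl11 was at 27.0 and 26.8 CPM at 12 months, against 7.37 and 5.99 CPM at 3 months (2.00 ± 0.12, adjusted p = 1.77e-13), and the monocyte chemokines Ccl2 (0.32 ± 0.04) and Ccl7 (0.49 ± 0.04) rose by less. Cxcl14 rose (50.2 and 44.5 CPM at 12 months, against 24.2 and 25.4 CPM at 3 months, 0.93 ± 0.08), while Cxcl12, a retention signal for blood stem cells and lymphocytes, fell (748 and 635 CPM at 12 months, against 924 and 917 CPM at 3 months, -0.41 ± 0.05). Of 39 cytokines and their receptors 10 rose and 8 fell. The macrophage growth factor Csf1 was at 3851 and 3762 CPM at 12 months, against 3207 and 3252 CPM at 3 months (0.24 ± 0.03, adjusted p = 2.25e-06). Il6 was at 119 and 122 CPM at 12 months, against 134 and 120.2 CPM at 3 months and did not pass (-0.08 ± 0.06, adjusted p = 0.34), with a change of 0.0054 without 3-month replicate 1. Regulators of NF-kB rose in 6 of 16 cases, including the inhibitor Nfkbia (0.45 ± 0.08), and fell in none. The shares of all tested genes were 12.9% higher and 15.5% lower. Over 49 senescence-associated secretory factors 21 rose and 14 fell (median 0.15), a list that shares members with the chemokines and proteases.

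Innate defence genes made by the liver and by fibroblasts fell more often than they rose. Complement, the cascade of plasma proteins that tags and lyses microbes, fell in 12 of 22 cases and rose in 1 (median -0.41). Its regulator Serping1 (-0.61 ± 0.05) fell with the components C4b (-0.64 ± 0.06) and Cfb (-1.10 ± 0.15). The exception was the surface inhibitor Cd55 (139 and 143 CPM at 12 months, against 87.5 and 81.9 CPM at 3 months, 0.74 ± 0.05, adjusted p = 1.11e-12). Of 14 acute phase and innate defence genes 1 rose and 6 fell. The one that rose was the pentraxin Ptx3 (2311 and 2219 CPM at 12 months, against 1661 and 1571 CPM at 3 months, 0.49 ± 0.04, adjusted p = 2.68e-11). Saa3 was at 50.8 and 36.9 CPM at 12 months, against 64.1 and 65.7 CPM at 3 months (-0.57 ± 0.09, adjusted p = 1.85e-05), and at -0.35 without 12-month replicate 2, and the iron-binding lipocalin Lcn2 changed by -0.94 ± 0.12.

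Insulin-like growth factors promote growth, are held by binding proteins and are released when proteases cut those proteins. Of 19 genes of this axis 12 fell and 2 rose (median -0.77). Igfbp5 had the largest fall by the same ranking, at 3.72 and 2.99 CPM at 12 months, against 32.2 and 33.1 CPM at 3 months (-3.29 ± 0.13, adjusted p = 1.3e-17), and was at 19.6 and 20.004 CPM at 24 months. Igfbp4 was at 403 and 339 CPM at 12 months, against 779 and 798 CPM at 3 months (-1.09 ± 0.07, adjusted p = 1.02e-13), and Igfbp2 at 7.45 and 6.17 CPM at 12 months, against 16.0 and 24.1 CPM at 3 months (-1.56 ± 0.16, adjusted p = 3.44e-09). The ligand Igf1 (53.4 and 44.9 CPM at 12 months, against 81.1 and 86.4 CPM at 3 months, -0.77 ± 0.07), the protease that cuts IGFBP4, Pappa (-0.97 ± 0.07), and its inhibitor Stc1 (-1.99 ± 0.16) fell as well. The exceptions were the IGF2-preferring binding protein Igfbp6 (32.3 and 33.5 CPM at 12 months, against 15.3 and 16.1 CPM at 3 months, 1.07 ± 0.09, adjusted p = 1.68e-10) and the scavenger receptor Igf2r (0.34 ± 0.04). Among 47 other growth factors and receptors 11 rose and 20 fell. Fgf2 was at 369 and 392 CPM at 12 months, against 226 and 216 CPM at 3 months (0.79 ± 0.05, adjusted p = 3.98e-14), the epidermal growth factor family ligand Ereg rose by 0.75 ± 0.05 and the KIT ligand Kitl by 0.55 ± 0.05. Gas6 (-0.82 ± 0.05), Bdnf (-0.66 ± 0.06) and the receptor Pdgfrb (-0.44 ± 0.04) fell, and Vegfa did not pass (-0.06 ± 0.06, adjusted p = 0.508).

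Developmental signalling changed gene by gene, and its counts stand against 28.4% of all tested genes called, 12.9% higher and 15.5% lower. TGF-beta, which drives matrix production and myofibroblast activation, had 6 of 17 ligands and receptors higher and 2 lower, and among its target genes 12 of 20 fell and 2 rose (median -0.18), several of which are collagens and matrix genes counted above. The 2 that fell among ligands and receptors were Tgfb2 (-0.47 ± 0.07, adjusted p = 3.77e-06, and -0.31 without 12-month replicate 2) and Tgfb3 (-0.44 ± 0.05, adjusted p = 1.79e-07). The activin subunit Inhba (0.42 ± 0.05) and the co-receptor Tgfbr3 (0.30 ± 0.04) rose. In the related BMP pathway 9 of 25 genes rose and 11 fell, with the ligands Bmp4 (-0.78 ± 0.07) and Gdf6 (381 and 349 CPM at 12 months, against 558 and 603 CPM at 3 months, -0.67 ± 0.05) lower, the modulator Bmper higher (0.43 ± 0.05), and the target genes Id1 (0.33 ± 0.05) and Id3 (-0.18 ± 0.04) moving opposite ways. Wnt ligands and receptors rose in 3 of 27 cases and fell in 8, including the receptors Fzd2 (-0.77 ± 0.07) and Fzd8 (-0.79 ± 0.08) and the ligand Wnt5a (-0.45 ± 0.11). Of 22 Wnt inhibitors and targets 2 rose and 7 fell, with the secreted modulator Sfrp2 at 13.6 and 11.4 CPM at 12 months, against 41.3 and 43.8 CPM at 3 months (-1.78 ± 0.10, adjusted p = 1.47e-14) and the feedback inhibitor Nkd1 at -1.68 ± 0.16. Notch genes fell in 6 of 20 cases and rose in 2, Notch3, the receptor of mural cells, by -0.75 ± 0.06.

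Nr4a3 (ENSMUSG00000028341, a protein-coding gene on the + strand of chromosome 4, 48045153 to 48086447 in GRCm38), the orphan nuclear receptor named in the title, was one of 3 NR4A genes and the only one called. It was at 3.72 and 4.88 CPM at 12 months, against 2.38 and 2.11 CPM at 3 months (0.94 ± 0.24, adjusted p = 0.00308), from 65 and 98 reads at 12 months and 53 and 44 reads at 3 months. Its call was lost without 12-month replicate 2 (0.73, adjusted p = 0.0945) and with DESeq2 (adjusted p = 0.0506), so it rests on few reads and partly on 1 library. The paralog Nr4a1 was at 32.7 and 39.6 CPM at 12 months, against 34.7 and 36.6 CPM at 3 months (0.03 ± 0.10, adjusted p = 0.883), with changes of -0.01 without 3-month replicate 1 and -0.12 without 12-month replicate 2. Nr4a2 was at 3.04 and 3.08 CPM at 12 months, against 2.79 and 3.31 CPM at 3 months (0.01 ± 0.21, adjusted p = 0.982), with changes of -0.11 and -0.000588 without the same libraries. NR4A genes are immediate early genes, which cells induce within minutes of a stimulus. Of 24 genes of that kind 6 rose and 12 fell (median -0.14). Egr1 was at 386 and 396 CPM at 12 months, against 579 and 598 CPM at 3 months (-0.59 ± 0.04, adjusted p = 1.14e-12), Egr3 changed by -1.18 ± 0.13, Fos by -0.62 ± 0.07 and the mRNA-destabilising Zfp36 by -0.71 ± 0.05. The AP-1 subunit Fosl1 (12.0 and 12.4 CPM at 12 months, against 4.72 and 4.60 CPM at 3 months, 1.39 ± 0.15, adjusted p = 9.36e-09) and the factor Klf4 (112 and 114 CPM at 12 months, against 66.4 and 65.7 CPM at 3 months, 0.78 ± 0.06, adjusted p = 5.86e-12) rose.

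Direct cardiac reprogramming uses cardiac transcription factors and is hindered by barrier genes, some of which act on chromatin. Of 23 cardiac transcription factors 1 rose and 3 fell (17.4% called, against 28.4% of all genes). Among the reprogramming factors, Gata4 was at 108 and 106 CPM at 12 months, against 101 and 104 CPM at 3 months and did not pass (0.06 ± 0.05, adjusted p = 0.436), while Mef2c was at 18.3 and 18.8 CPM at 12 months, against 26.5 and 29.2 CPM at 3 months (-0.58 ± 0.08, adjusted p = 2.75e-06). Tbx5 was near the limit of detection, at 1.15 and 1.14 CPM at 12 months, against 2.79 and 1.39 CPM at 3 months (-0.87 ± 0.32, adjusted p = 0.0389). The call was lost when 3-month replicate 1 (-0.28, adjusted p = 0.687), 12-month replicate 1 (-0.87, adjusted p = 0.12) or 12-month replicate 2 (-0.87, adjusted p = 0.155) was left out. Hand2 did not pass (-0.06 ± 0.07, adjusted p = 0.58), and Tbx20, abundant in cardiac fibroblasts, rose (1341 and 1378 CPM at 12 months, against 1100.2 and 1057 CPM at 3 months, 0.33 ± 0.04, adjusted p = 2.67e-08). A list of 37 reprogramming barrier and chromatin genes was not limited to barriers. Of these 5 rose and 6 fell, a share near that of all genes. Hmga1, an architectural chromatin protein, was at 49.2 and 56.7 CPM at 12 months, against 26.0 and 27.2 CPM at 3 months (1.00 ± 0.07, adjusted p = 6.66e-12), and Hmga2 rose by 0.79 ± 0.13, while the histone methyltransferase Ezh2 (-0.37 ± 0.08) and the maintenance DNA methyltransferase Dnmt1 (-0.35 ± 0.06) fell. Imprinted genes, which are expressed from 1 parental copy and are high in growing tissues, fell in 12 of 29 cases and rose in 5. Peg10 was at 552 and 524 CPM at 12 months, against 1194 and 1211 CPM at 3 months (-1.16 ± 0.05, adjusted p = 4.9e-17). The non-coding RNAs Meg3 (-0.79 ± 0.06) and Rian (-0.77 ± 0.05) of one cluster, Peg3 (-1.001 ± 0.08), Plagl1 (-1.31 ± 0.11) and H19 (0.745 and 0.697 CPM at 12 months, against 2.43 and 2.40 CPM at 3 months, -1.74 ± 0.28) fell as well, whereas Snrpn rose (0.92 ± 0.13).

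Several of the 20 largest rises belong to none of the groups above. The serotonin receptor Htr2a was at 11.9 and 16.6 CPM at 12 months, against 4.90 and 4.22 CPM at 3 months (1.65 ± 0.15, adjusted p = 8.49e-10), and the G protein-coupled receptor Gpr35 at 17.7 and 20.1 CPM at 12 months, against 6.57 and 5.94 CPM at 3 months (1.60 ± 0.13, adjusted p = 4.64e-11). The guidance cue Sema3c was at 99.6 and 109 CPM at 12 months, against 37.1 and 34.5 CPM at 3 months (1.55 ± 0.07, adjusted p = 4.3e-17). The mesenchymal transcription factor Foxf2 (1.52 ± 0.17), the actin regulators Cobl (1.55 ± 0.17) and Scin (1.52 ± 0.21) and the translation factor Eef1a2 (1.54 ± 0.11), usually restricted to muscle and neurons, also rose, as did Mbp (1.65 ± 0.17), Prune2 (1.34 ± 0.10) and the receptor chaperone Ric3 (1.38 ± 0.16).

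The 24-month libraries, which were in the fit but not in this comparison, show where these levels stood later. Their sex make-up differed, with Xist at 775 and 833 CPM and Ddx3y at 40.5 and 38.1 CPM, against 130 and 133 CPM of Ddx3y at 12 months, so their levels are given as description. The median of interferon response genes, set against the 3-month mean on the log2 CPM scale, was -1.09 and -1.02 in the 12-month libraries and -0.29 and -0.32 in the 24-month libraries. Irf7 was at 75.7 and 79.5 CPM and Isg15 at 64.6 and 63.5 CPM at 24 months. NRF2 and glutathione genes were at 0.44 and 0.45 at 12 months and 0.13 and 0.15 at 24 months, and ribosomal proteins at 0.22 and 0.30 at 12 months and -0.0062 and -0.02 at 24 months. Mitosis genes were low at both later ages, at -0.67 and -0.61 at 12 months and -0.69 and -0.87 at 24 months, and p53 targets were high at both, at 0.44 in both 12-month libraries and 0.31 and 0.42 at 24 months. Single matrix genes followed either course: Col3a1 was at 10998 and 11416 CPM at 24 months, between the levels of the other ages, while Eln was at 56.9 and 59.2 CPM and Fbn2 at 4.08 and 4.32 CPM, far closer to their 12-month than to their 3-month levels. Ltbp2 was at 219 and 223 CPM at 24 months, close to its 12-month level.

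**Figure D4:**
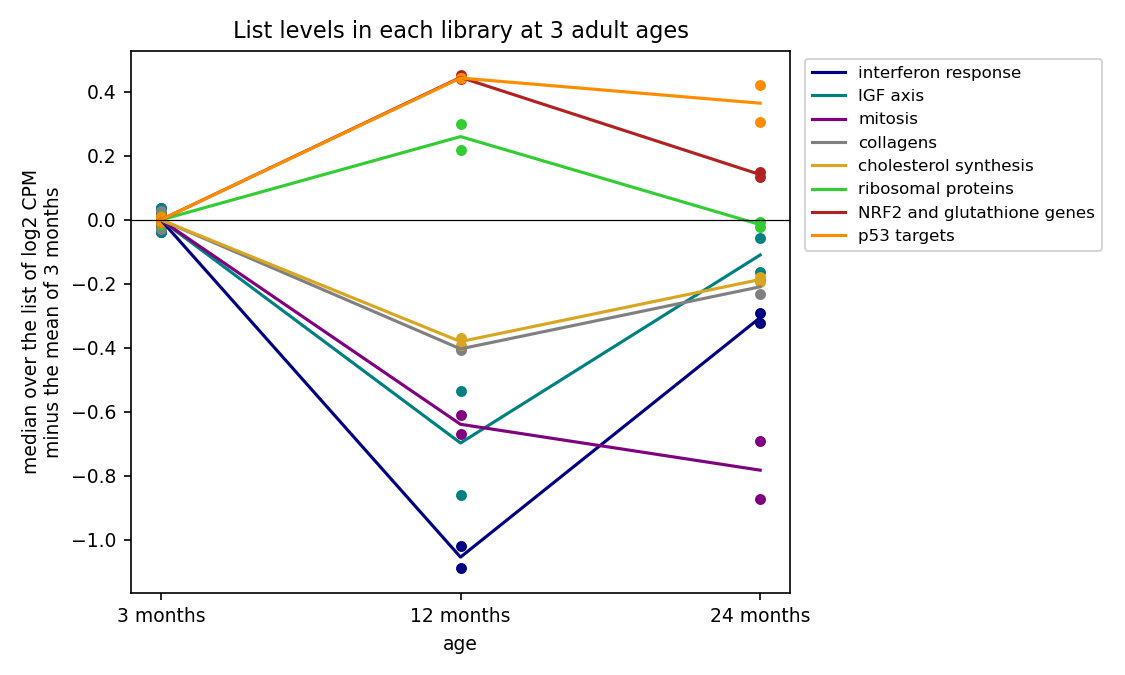
Median over each list of the log2 CPM of its genes minus their 3-month mean (vertical axis) in each library at 3, 12 and 24 months (points), with lines joining the means of each age. The interferon response, IGF, NRF2 and ribosomal protein lists lie nearer to 0 at 24 months than at 12 months, and the mitosis list lies at -0.69 and -0.87 at 24 months.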

How the data were processed

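Cells were primary cardiac fibroblasts of wild-type mice, sequenced with 2 libraries per age after 3 days in culture. Per the labels the molecule was polyA RNA, whereas the protocol describes rRNA depletion before a stranded mRNA kit, and which selection was used is uncertain. Trimmomatic 0.36, featureCounts in Subread 1.5.1, SAMtools and mm10 are named in the submitters' processing notes. No aligner, annotation release or strand setting was given there, so reads of overlapping and antisense genes may not be told apart.

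The deposited table holds raw counts, FPKM and exonic length for 56691 genes. Tests used the raw counts as deposited by the authors. The authors' FPKM equal counts divided by exonic length and library total to within 0.005, and were used to describe levels only. Exonic length (an other unit, in bases, as deposited) was needed for that check alone. Between 0.073 and 0.205% of a library's counts had no gene symbol. Only 1472 of 52073 identifiers have the same start and end in the table as in GENCODE M21 (GRCm38). Positions were therefore taken from GENCODE M21, and promoters from RefSeq (GRCm38.p6), which covers 11418 of the tested gene symbols.

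Low genes were removed by filterByExpr (minimum count 10, minimum total 15) and libraries scaled by TMM. The quasi-likelihood F test of edgeR 4.0.16 (R 4.3.3) was fitted to all 8 libraries with a coefficient for each age. It had 4 residual and 24.2 prior degrees of freedom, and the common biological coefficient of variation was 0.0364. Benjamini-Hochberg adjustment ran over all 16466 genes, with calls at 0.05. The fit was checked on simulated counts. Chi-square between libraries was restricted to genes summing to 20 counts or more, and log2 CPM used a prior count of 2. A floor of 3 counts covers counting error alone, because PCR copies of reads are not separate molecules. No list median differed with genes of no count placed at that floor.

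The comparison, the gene lists and the rule for named genes were chosen with earlier results of these data known. That rule takes the 20 largest rises and the 20 largest falls among called genes that average 5 CPM or more over the 4 libraries, do not overlap between ages and carry no predicted or clone-based symbol. Members of the lists were added. Genes with a printed promoter, and exceptions within a list, were named after their values were seen. Some genes that this rule or the lists take are not reported here.

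Scaling was repeated with DESeq2 size factors and with upper quartiles, and the test with DESeq2 1.42.0 and limma-voom (limma 3.58.1). Other alternatives were no filter, a filter of 10 CPM in 2 libraries, a replicate block, only the 4 libraries, no neonatal libraries, a test against 1.5-fold and each library left out. In the last case the single library left at an age takes its spread from the other ages.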

Additional observations from a re-analysis of the deposited data

How the results depend on the processing

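The 4680 calls (2130 higher, 2550 lower) kept within 1.5 times under 9 alternatives: 4685 with DESeq2 size factors, 4792 with upper-quartile scaling, 3317 with DESeq2, 4631 with limma-voom, 4420 with no filter, 4030 with the stricter filter, 4466 with the replicate block, 4573 with only the 4 libraries and 4605 without neonatal libraries. With DESeq2, 1414 genes were higher. A test against 1.5-fold kept 550 genes, 152 higher and 398 lower. Under that test the counts were 4 for p53 targets, 11 for interferon gamma targets, 6 for collagens, 2 for DNA replication, 4 for mitosis, 18 for NRF2 and glutathione genes, and 0 for cholesterol synthesis, the respiratory chain and ribosomal proteins. Without 1 library, 3143 to 3874 genes passed, 1383 to 1750 higher and 1760 to 2124 lower, and 14 to 24 respiratory chain genes rose. The cause was not tested. No shared effect of replicate number was seen: correlations of same-numbered libraries ran from -0.039 to 0.032, and of the 4466 calls with the replicate block 4449 were shared. With 2 libraries per age this cannot tell whether the samples were paired, which the labels do not state. Changes of sign were in genes that did not pass: without 1 library Nr4a1 ran from -0.12 to 0.15, Nr4a2 from -0.11 to 0.14 (-0.00161 with no filter), Cdkn2a from -0.29 to 0.60 and Il6 from -0.15 to 0.0054. Among 252 genes followed, 3346 of 3514 values kept direction and side, 150 fell below and 10 rose above the threshold, and 10 of 239 called genes lost their call other than against 1.5-fold. List medians of TGF-beta regulators, Wnt ligands, hypoxia targets and the barrier and chromatin genes changed sign with scaling. Genes under 1 CPM had a median SE of 0.55, which limits what 2 libraries per age can show.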

Other observations

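The other gene lists gave the following counts. Of all tested genes 28.4% were called, 12.9% higher and 15.5% lower, and 35.8% were called from 20 to 100 CPM. A list with shares near these shows no more than genes at large. Unfolded protein response genes, which restore folding in the endoplasmic reticulum, rose in 2 and fell in 16 of 29 cases (median -0.17). Cell adhesion receptors rose in 4 and fell in 19 of 36 cases (median -0.40), and axon guidance genes rose in 8 and fell in 18 of 47 cases (median -0.21). Glycolysis genes rose in 7 and fell in 4 of 22 cases (median 0.02), and genes of lipid uptake and fatty acid metabolism rose in 12 and fell in 6 of 38. Lysosome and autophagy genes rose in 7 and fell in 13 of 37 cases (median -0.07). Heat shock genes rose in 6 and fell in 1 of 16 cases, and circadian clock genes rose in 5 and fell in 3 of 19. Bone and cartilage genes rose in 4 and fell in 9 of 22 cases (median -0.30). Among transcripts of the mitochondrial genome 5 of 12 rose and none fell (median 0.13). In mt-Co2 and mt-Co3 the ages overlapped and only 12-month replicate 2 was higher. They were at 33.6 and 50.1 CPM and at 14.4 and 23.4 CPM at 12 months, against 34.2 and 33.9 CPM and 14.7 and 14.0 CPM at 3 months. Of 26 TGF-beta regulators 5 rose and 6 fell (median -0.04), and of 23 hypoxia targets 3 rose and 6 fell. Of 30 HOX and other positional factors 7 rose and 5 fell, of 10 Hedgehog pathway genes 1 rose and 3 fell, and of 31 ion channel and gap junction genes 3 rose and 8 fell. Of 13 glucocorticoid targets 4 rose and 6 fell, and of 5 histone genes 1 rose and 2 fell. Most listed histone genes were not matched by symbol, so the last count does not describe histone genes as a group. Of 7 Schwann and neural markers 2 rose and 1 fell, of 2 adipocyte markers 1 rose and 1 fell, and of 2 neutrophil markers 0 rose and 0 fell.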
